A study of Mus musculus with 78 samples.

Results

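The aminoacyl-tRNA synthetases, the enzymes that attach each amino acid to its tRNA, were followed through the loss of the transcription factor ZFP143 in mouse embryonic stem cells. Members were the protein-coding genes whose symbol is an amino acid letter followed by ars, with nothing or a digit after it, together with Farsa, Farsb, Eprs and Tarsl2. This gave 38 of the 55401 genes in each count table. Symbols that end in 2 mark the mitochondrial class of 17 genes, and the other 21 genes form the cytosolic class, which also holds Tarsl2, a paralog of Tars.

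The cells came from homozygous clones of the E14TG2a line, a mouse embryonic stem cell line, in which the endogenous ZFP143 carries an FKBP tag, which lets dTAG-V1 (500 nM) degrade it, with DMSO as the control. New transcription was measured by TT-seq, in which RNA made during a 10 min pulse of 4-thiouridine is isolated, in control cells and in cells given dTAG-V1 for 2, 6 or 24 h. RNA-seq of poly(A) RNA covered DMSO and 24, 48 or 72 h of depletion, and was also done in a further experiment with retinoic acid (RA), in which cells spent 24 h in DMSO or dTAG-V1 and were collected, or then moved to a differentiation medium with 1 µM RA for another 24 h in the same condition. Each group had 2 libraries. All cells, controls included, carried the tag, the depleted RA cells had been depleted for 48 h, and no library had the differentiation medium without RA, so an RA effect here includes the change of medium.

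A synthetase loads its amino acid in an ATP-dependent reaction, and the loaded tRNA then carries it to the ribosome. Cytosolic and mitochondrial protein synthesis use separate synthetases that are mostly encoded by separate nuclear genes, whereas Kars and Gars make both forms from 1 gene each. In the cytosol, 8 of the enzymes (Dars, Eprs, Iars, Kars, Lars, Mars, Qars and Rars) are held together in the multisynthetase complex, and by fold the enzymes belong to class I (18 genes here) or class II (19 genes), with the bifunctional Eprs holding both. Mitochondria charge tRNA-Gln by a detour through glutamate and the GatCAB amidotransferase, and thus have no Qars partner.

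Library totals ran from 9721568 to 16532077 counts in TT-seq, from 10261851 to 15316700 in the RNA-seq time course and from 13890761 to 27089033 in the RA experiment. All 38 members passed the count filter in each table, with 51 to 20273 reads per library in TT-seq, 78 to 45839 in the time course and 121 to 48456 in the RA experiment. Values below are CPM, counts scaled to a common library size with TMM factors, and changes are log2 of treated over control ± SE. Because only the protein was targeted, Zfp143 mRNA does not check the depletion. It was higher in each depleted group, for example 43.0 and 44.3 CPM in DMSO against 95.5 and 90.8 after 24 h in the time course (1.09 ± 0.06, edgeR adjusted p = 2.47e-08). All 8 stem cell markers stood at 1 CPM or more in each group, their sum lay between 4216 and 6725 CPM in the time course and between 1365 and 7227 in the RA experiment, and the fibroblast markers summed to at most 5.52 CPM in the time course and reached 26.2 in depleted cells after RA. In bulk RNA, fewer cells of a type and less RNA per cell cannot be told apart.

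Cytosolic synthetase mRNAs were more abundant than mitochondrial ones in control cells. Per kilobase of exon, the median level in DMSO of the time course was 68.9 CPM in the cytosolic class and 9.52 in the mitochondrial class, and in the RA experiment it was 77.5 and 10.2. In the time course Gars, the glycine enzyme of both compartments, stood at 198 ± 0.37 CPM per kb (SD, n = 2), followed by Nars at 161 ± 6.3, Iars at 129 ± 2.3 and Aars at 125 ± 3.4. The levels of Iars and Aars differed by less than their summed SD. The lowest members were Wars2 at 1.85 ± 0.061 and Tarsl2 at 1.18 ± 0.16. In TT-seq, per kilobase of the whole gene, the class medians were 5.72 and 2.01. Lars2 lay far above the rest of the mitochondrial class, at 254 ± 178 CPM per kb in the time course and 146 ± 0.93 in the RA experiment, and its libraries are described at the end.

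ZFP143 was present at the promoters of 7 members. A gene counted as bound where a ZFP143 ChIP-seq peak of DMSO cells overlapped the interval from 2000 bp upstream to 1000 bp downstream of a transcript start, with the peak centre within 2000 bp of that start. Bound were 4 of 21 cytosolic genes (19.0%; Cars, Farsa, Lars and Mars) and 3 of 17 mitochondrial genes (17.6%; among them Ears2 and Yars2), beside 14.5% of the 14963 protein-coding genes tested. All 7 stayed when the peak had to lie within 500 bp of a start. The enrichment over input was 79.6-fold at Yars2 (rank 238 of 3189 peaks), 45.2-fold at Mars, 30.9-fold at Ears2, 27.0-fold at Lars, 20.2-fold at Cars and 11.9-fold at Farsa, around a median of 20.8-fold over all peaks. The summits of these 6 peaks lay between 1 and 153 bp from the nearest start. The Ears2 peak also fell at the start of the neighbouring gene Ubfd1. No member peak overlapped a CTCF peak, which 6.93% of all ZFP143 peaks did. Under the same promoter rule 11 of 38 members (28.9%) had a CTCF peak, among them Cars, Mars and Yars2, beside 21.9% of the genes. The ZFP143 list has no replicates, so no error can be given for an enrichment.

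The peak windows at Yars2, Mars and Cars are shown because these peaks stand at a mitochondrial and a pair of cytosolic genes that took different courses below. Each window holds 201 bases around the summit on the plus strand of GRCm38.p6. Capitals mark matches, on either strand, to 3 sets of letters. ACTACA and CCCANNATG are parts of the known ZNF143 motifs, and TGATGNAA is a core of the composite C/EBP-ATF element bound by ATF4.
Yars2, chr16:16302864-16303064: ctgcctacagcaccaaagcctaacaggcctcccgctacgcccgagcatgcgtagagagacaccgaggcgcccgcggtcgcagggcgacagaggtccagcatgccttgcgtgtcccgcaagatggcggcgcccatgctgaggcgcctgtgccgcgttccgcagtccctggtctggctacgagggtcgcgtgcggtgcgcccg
Mars, chr10:127311589-127311789: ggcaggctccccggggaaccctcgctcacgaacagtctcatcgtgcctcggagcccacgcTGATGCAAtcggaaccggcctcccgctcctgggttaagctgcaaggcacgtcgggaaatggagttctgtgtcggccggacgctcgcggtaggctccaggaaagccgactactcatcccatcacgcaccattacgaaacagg
Cars, chr7:143600049-143600249: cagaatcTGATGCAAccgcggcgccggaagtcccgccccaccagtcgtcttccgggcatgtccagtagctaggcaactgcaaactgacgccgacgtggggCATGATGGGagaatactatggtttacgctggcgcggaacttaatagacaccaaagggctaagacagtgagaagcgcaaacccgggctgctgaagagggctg

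In these windows, CCCANNATG was found at Cars, on the minus strand and at the summit itself. Over all 3189 peaks it stood in 24.2% of windows and ACTACA in 37.8%. Among the member peaks, ACTACA was found at 1 of 7, Lars. TGATGNAA stood in the windows of Cars and Mars, and in 1.85% of all peak windows. The Yars2 window held none of the 3 although its peak had the highest enrichment among members, and a letter match is a description that says nothing of binding. RefSeq promoters, from 250 bases before to 50 after the start, were found for 28 members, 14 of each class. Of these, 5 of the 14 cytosolic promoters (Aars, Gars, Iars, Tars and Yars) and 0 of the 14 mitochondrial ones held TGATGNAA, beside 3.97% of all 32851 promoters. ACTACA was found in 3 of 28 (Farsa, Tars and Yars2) beside 10.3%, and CCCANNATG in 1 of 28 (Aars) beside 5.01%. The promoters of Yars and Aars are shown in gene orientation, Yars as the cytosolic partner of Yars2 and Aars as the promoter with the most matches.
Yars, chr4:129189653-129189952: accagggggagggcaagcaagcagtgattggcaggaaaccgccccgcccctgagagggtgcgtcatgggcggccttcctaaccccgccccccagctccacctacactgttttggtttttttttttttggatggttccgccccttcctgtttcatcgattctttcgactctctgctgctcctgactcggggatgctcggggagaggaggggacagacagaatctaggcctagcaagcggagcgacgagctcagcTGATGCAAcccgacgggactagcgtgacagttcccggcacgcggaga
Aars, chr8:111033592-111033891: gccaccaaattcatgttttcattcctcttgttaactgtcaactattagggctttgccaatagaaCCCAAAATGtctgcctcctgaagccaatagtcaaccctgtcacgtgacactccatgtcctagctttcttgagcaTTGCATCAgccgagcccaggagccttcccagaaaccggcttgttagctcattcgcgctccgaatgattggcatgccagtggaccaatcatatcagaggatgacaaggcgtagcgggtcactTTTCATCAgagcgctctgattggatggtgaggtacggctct

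TT-seq asked which genes changed transcription early after the loss of ZFP143. Within 2 h, Lars and Yars2 were lower and stayed lower at 6 and 24 h, and no member was higher until 24 h. A gene was called at an adjusted p under 0.05 (edgeR quasi-likelihood test, Benjamini-Hochberg over all 17870 tested genes) and an absolute log2 change above 0.5. At 2 h, 2 of 38 members were called lower and 0 higher, beside 2.43% and 0.168% of all genes, and 7 members had an unadjusted p under 0.05 in edgeR and 8 in DESeq2. The counts were again 2 and 0 at 6 h (2.83% and 0.397% of all genes), and at 24 h 3 lower and 3 higher (4.09% and 2.02%), or 1 and 4 when scaled by library size alone. Both genes lower at 2 h carried a ZFP143 peak. Of bound protein-coding genes, 17.5% were called lower at 2 h, beside 0.173% of genes without a peak.

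Lars, the leucine enzyme of the multisynthetase complex, was transcribed at 199 and 193 CPM in DMSO, then at 62.6 and 72.8 (2 h of depletion), 78.1 and 72.6 (6 h) and 74.5 and 59.1 (24 h). Each depleted library lay under both controls, and the depleted groups overlapped each other. Its log2 change over these times was −1.53 ± 0.15, −1.38 ± 0.15 and −1.55 ± 0.15 (edgeR adjusted p = 0.00121, 0.00203 and 0.000941), which is 2.60- to 2.93-fold lower. Yars2, which charges mitochondrial tRNA-Tyr, stood at 27.8 and 40.8 CPM in DMSO, then at 12.2 and 16.1 (2 h), 15.8 and 17.6 (6 h) and 18.1 and 16.4 (24 h). Here too, no depleted library reached a control, but the controls differed more. The log2 change of Yars2 was −1.28 ± 0.23, −1.04 ± 0.23 and −0.99 ± 0.23 in order of time (edgeR adjusted p = 0.0201, 0.0463 and 0.0386). The Yars2 calls were lost without DMSO replicate 2 (−0.96, −0.73 and −0.68, with edgeR adjusted p of 0.14, 0.17 and 0.14) or without either depleted library of the comparison (adjusted p of 0.087 to 0.32). The Lars calls were kept in each of these fits. Scaled by library size alone, Yars2 at 24 h also missed the threshold (−0.94, 0.053).

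The other 5 bound members did not pass the test in TT-seq at any time, except for Mars without the count filter (−0.62 at 6 h, edgeR adjusted p = 0.011, and −0.66 at 24 h, 0.0042). Mars, which charges both the initiator and the elongator methionine tRNA, had controls far apart at 109 and 69.2 CPM, beside 58.9 and 71.8 (2 h), 55.5 and 60.7 (6 h) and 62.7 and 51.0 (24 h). Its log2 change of −0.44 ± 0.22, −0.61 ± 0.22 and −0.65 ± 0.22 missed the threshold (edgeR adjusted p = 0.509, 0.196 and 0.127), and without DMSO replicate 2 it passed at 24 h (−0.92, 0.041). Changes of Ears2 (−0.22, −0.23 and 0.21), Farsa (−0.07, −0.22 and −0.24) and Cars (0.23, 0.02 and 0.15) had SE of 0.14 at each time and did not pass the test.

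At 24 h, 4 further members passed the test, none of them with a ZFP143 peak. Qars, the glutamine enzyme of the complex, fell from 47.7 and 44.1 CPM to 27.5 and 32.4 (−0.61 ± 0.14, edgeR adjusted p = 0.0419). Wars, the tryptophan enzyme, rose from 78.5 and 74.3 to 125 and 113 (0.64 ± 0.12, 0.0186). Eprs, which joins glutamate and proline synthetases in 1 chain, rose from 252 and 285 to 412 and 383 (0.57 ± 0.12, 0.0278). Nars2, which charges mitochondrial tRNA-Asn, rose from 67.0 and 70.1 to 105 and 107 (0.63 ± 0.13, 0.0309). In each case the 24 h libraries lay beyond both controls. These calls depended on single libraries. Nars2 and Qars lost theirs without any 1 of the 4 libraries (edgeR adjusted p of 0.076 to 0.18), Wars without either DMSO library or 24 h replicate 1 (0.062 to 0.094), and Eprs without DMSO replicate 1 or either 24 h library (0.08 to 0.13). Sars, the serine enzyme, had the greatest increase among members, 0.68 ± 0.24, but with controls at 169 and 94.3 CPM it was not called (0.153), and without DMSO replicate 1 it was (0.99 at 2 h and 1.15 at 24 h, edgeR adjusted p = 0.047 and 0.023). DESeq2 called Aars (0.53, adjusted p = 0.049), Gars (0.51, 0.023) and Sars (0.68, 0.047) at 24 h, and without the count filter edgeR called Aars and Sars at 24 h (0.0094 and 0.00082) and Sars at 2 h (0.52, 0.035). Set directly against 2 h, 24 h gave 0 called members by edgeR, beside 0.056% of genes lower and 0.0336% higher. At an unadjusted p under 0.05 there were 5, with DESeq2 4, and DESeq2 called 1, Wars (adjusted p = 0.028), as did edgeR without the count filter (0.023).

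**Figure D1:**
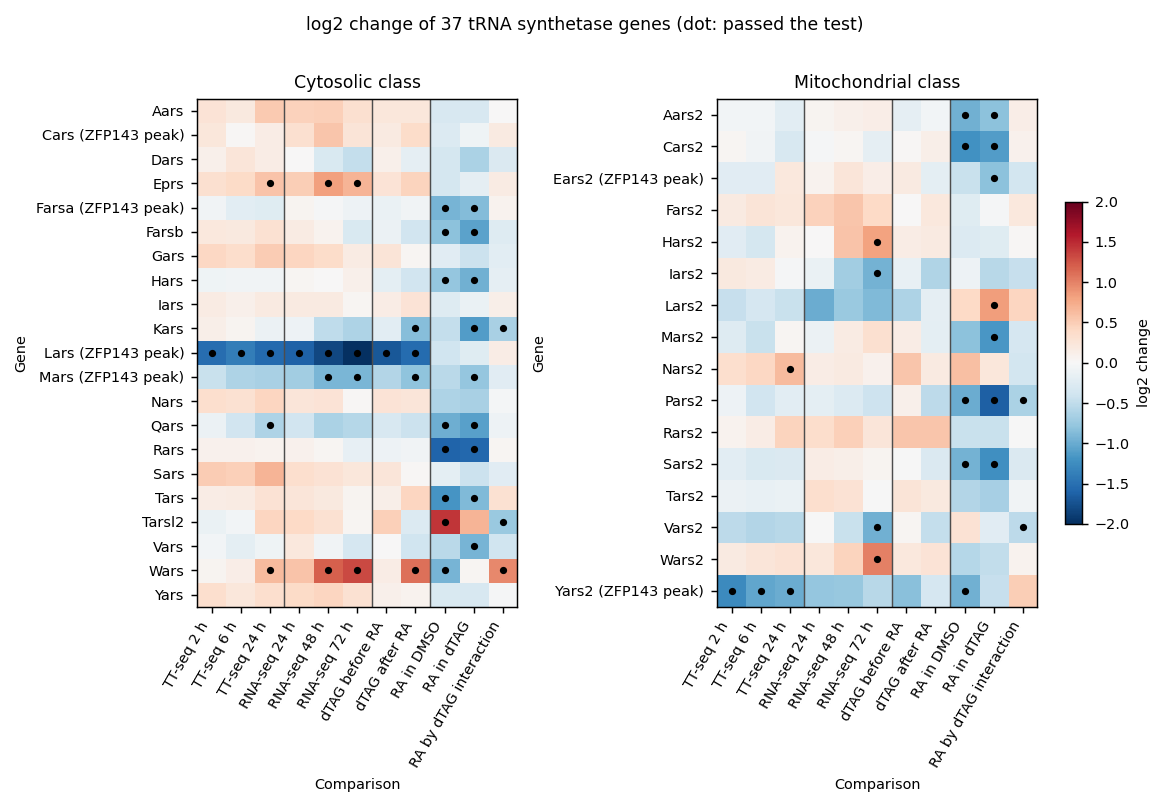
log2 change of 37 members (rows) in 11 comparisons (columns), blue lower and red higher, with a dot where the gene passed the test and the words ZFP143 peak beside 6 bound genes. Lars is lower with a dot in all 8 depletion comparisons, and the columns of RA hold most of the other dots, 13 in DMSO and 16 in depleted cells.

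RNA-seq asked how the loss carried over to poly(A) RNA and how it went on over days. Lars was the only member called at 24 h, Mars joined it at 48 h and Iars2 and Vars2 at 72 h, while Wars and Eprs were higher from 48 h and Hars2 and Wars2 at 72 h. A gene was called when its change exceeded 1.5-fold at an adjusted p under 0.01 (edgeR glmTreat, Benjamini-Hochberg over 13925 genes). At 24 h this gave 1 member lower and 0 higher, beside 3.41% and 2.32% of all genes, and 24 members had an unadjusted p under 0.05 in edgeR against no change and 2 in DESeq2 against 1.5-fold. At 48 h it gave 2 and 2 (7.71% and 10.5%), and at 72 h 4 and 4 (12% and 13.7%). Scaled by library size alone, the counts at 48 and 72 h were 2 and 3, and 2 and 4. The 3 times share their DMSO libraries. Beside the synthetases, 3 of 8 stem cell markers (Dppa5a, Nanog and Sox2) were called lower at 48 and 72 h, where the median of the 8 was −0.53 and −0.59, after −0.33 with 0 called at 24 h. At 48 h both tested primitive endoderm markers, Gata4 and Sox17, were higher, and at 72 h Sox17. Of the 2 tested fibroblast markers Col1a1 was higher at both times (3.14 and 2.5), whereas Thy1 did not pass the test (0.31 and −1.0). Of the 3 tested neural markers Nes and Tubb3 were lower and Sox1 higher at 48 and 72 h, and at 24 h Tubb3 was lower and Sox1 higher. Their part in the synthetase values was not tested.

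Lars mRNA stood at 552 and 566 CPM in DMSO, then at 186 and 178 (24 h of depletion), 160 and 156 (48 h) and 132 and 137 (72 h). The groups did not overlap. Its log2 change over these times was −1.62 ± 0.04, −1.82 ± 0.04 and −2.05 ± 0.04 (edgeR adjusted p = 3.06e-18, 2.57e-20 and 6.13e-22), a 4.15-fold lower level at the last time. Mars mRNA fell from 429 and 397 CPM to 222 and 217 (48 h), then 224 and 217 (72 h), with −0.91 ± 0.04 each time (edgeR adjusted p = 8.87e-08 and 5.74e-08). At 24 h its libraries, at 256 and 252 CPM, also lay under both controls, with −0.70 ± 0.04 (0.028), which missed the threshold and passed it without DMSO replicate 2 (−0.75, 0.0038). Scaled by library size alone, Mars at 72 h was not called (−0.69, edgeR adjusted p = 0.015). Mars and Ddit3 overlap by 68 bp on opposite strands.

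Yars2 mRNA was at 46.3 and 47.6 CPM in DMSO, then at 27.4 and 27.4 (24 h), 25.7 and 29.8 (48 h) and 32.8 and 31.4 (72 h). All depleted libraries lay under both controls. The log2 change was −0.78 ± 0.08, −0.76 ± 0.08 and −0.55 ± 0.08, and the test against 1.5-fold gave edgeR adjusted p of 0.0402, 0.0235 and 0.816, so Yars2 was not called. It passed at 48 h without 48 h replicate 2 (−0.88, 0.0053). The bound genes Cars, Ears2 and Farsa had changes between −0.10 and 0.55 over the 3 times. Cars at 48 h was called higher with library size alone (0.75, edgeR adjusted p = 0.00083).

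Wars mRNA had 110 and 103 CPM in DMSO, then 158 and 160 (24 h), 247 and 242 (48 h) and 265 and 268 (72 h). It rose by 1.20 ± 0.05 at 48 h (edgeR adjusted p = 1.03e-12) and 1.32 ± 0.05 at 72 h (8.05e-15), or 2.5-fold, and no groups overlapped. Eprs mRNA had 509 and 541 CPM in DMSO, 910 and 937 after 48 h, then 849 and 840 after 72 h (0.81 ± 0.04, edgeR adjusted p = 3.43e-06, and 0.68 ± 0.04, 0.00836). The Eprs call at 72 h was lost without DMSO replicate 1 or either 72 h library (0.05 to 0.096), with DESeq2 (0.20), with the size factors of DESeq2 (0.016) and without the count filter (0.12). Wars overlaps Wdr25 by 544 bp on the opposite strand, and which strand the counts kept is not given in the sources used here.

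At 72 h, 2 of the 17 mitochondrial genes were called lower and 2 higher, shares close to those of all genes (12% and 13.7%). Iars2, the isoleucine enzyme, fell from 208 and 215 CPM to 114 and 106 (−0.95 ± 0.05, edgeR adjusted p = 3.87e-08). Vars2, the valine enzyme, fell from 58.0 and 52.9 to 28.6 and 28.1 (−0.96 ± 0.08, 3.82e-05). Wars2, the tryptophan enzyme, rose from 10.7 and 11.3 to 24.5 and 20.3 (1.01 ± 0.12, 0.000578), and Hars2, the histidine enzyme, from 31.2 and 35.3 to 58.3 and 58.5 (0.80 ± 0.08, 0.00651). Vars2 lost its call with library size alone as the scale (−0.75, edgeR adjusted p = 0.026). Without 72 h replicate 1 the change of Wars2 was 0.87 (0.023), and Hars2 lost its call without DMSO replicate 1 or either 72 h library (edgeR adjusted p of 0.027 to 0.068). With DESeq2 neither was called (adjusted p = 0.075 and 0.27), and without the count filter Hars2 was not (0.022 in edgeR). Their cytosolic partners Iars and Vars had changes of 0.03 and −0.34, while Wars rose with Wars2, and Hars stood at 0.10. Iars2 overlaps Rab3gap2 by 2034 bp, Vars2 overlaps Gm20483 by 4734 bp and Hars2 overlaps Hars by 198 bp, all on opposite strands.

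Set directly against 24 h, 72 h gave 2 members lower and 1 higher, beside 6.6% and 7.53% of all genes, and 2 and 2 by library size alone. Iars2 fell from 200 and 188 to 114 and 106 CPM (−0.83 ± 0.05, edgeR adjusted p = 5.23e-05) and Vars2 from 51.5 and 59.2 to 28.6 and 28.1 (−0.96 ± 0.08, 9.14e-05), whereas Wars rose from 158 and 160 to 265 and 268 (0.75 ± 0.05, 0.00118). The Wars call was lost without 24 h replicate 1 (0.74, 0.011) or 72 h replicate 2 (0.73, 0.02), with DESeq2 (0.064) and without the count filter (0.013), and Hars2 passed without 24 h replicate 2 (0.95, 0.0011).

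**Figure D2:**
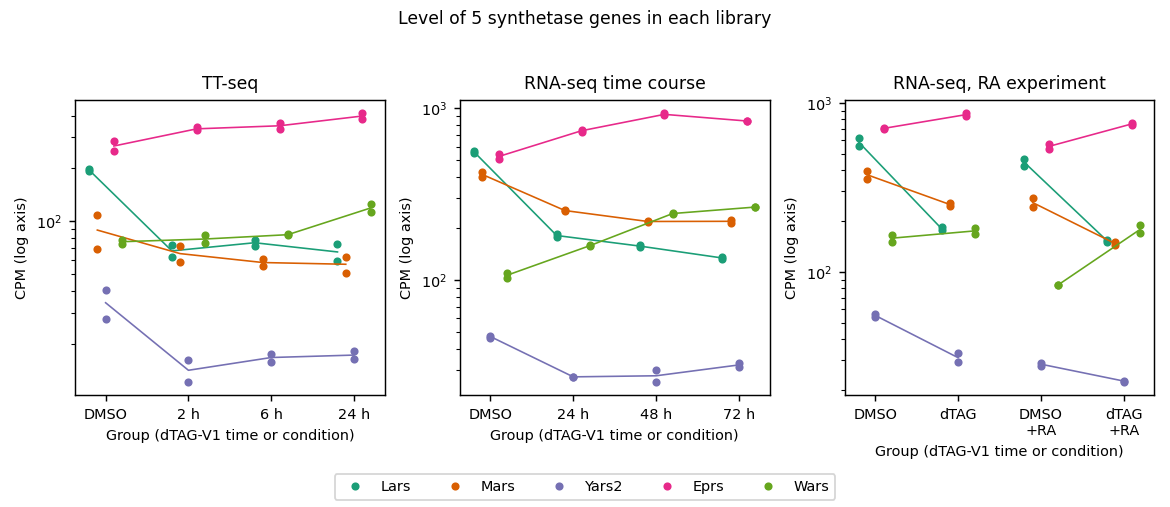
CPM of Lars, Mars, Yars2, Eprs and Wars in each library (points, log axis, lines through group means) by group in TT-seq, the RNA-seq time course and the RA experiment. Lars falls from 552 and 566 CPM to 132 and 137 over the RNA-seq time course, while Wars rises from 110 and 103 to 265 and 268.

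Before RA, depletion for 24 h gave 1 member lower, Lars, and 0 higher, beside 3.66% and 2.74% of 15915 genes (edgeR glmTreat). At an unadjusted p under 0.05 there were 19 in edgeR against no change and 2 in DESeq2 against 1.5-fold. Lars stood at 553 and 618 CPM in DMSO and 176 and 184 in depleted cells (−1.70 ± 0.08, edgeR adjusted p = 1.87e-11). Yars2 was at 56.5 and 53.8 against 32.9 and 29.1 (−0.83 ± 0.09, 0.017) and Mars at 356 and 396 against 257 and 244 (−0.59 ± 0.08, 0.973). Neither passed the test, though the groups did not overlap, and with the size factors of DESeq2 Yars2 did (−0.86, 0.0095).

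After RA, depleted cells differed from DMSO cells in 4 members, 3 lower and 1 higher, beside 7.36% and 9.1% of all genes. The 3 lower genes belong to the multisynthetase complex. In the same comparison, of 8 stem cell markers Esrrb, Klf4 and Tfcp2l1 were higher and Dppa5a lower. Of 4 neural markers Nes and Pax6 were lower. Of lists of 4 markers each, Gata6 (primitive endoderm), Mixl1 (mesoderm) and Col1a1 and Thy1 (fibroblasts) were higher. Mixl1 had only 0.18 and 0.34 CPM in the DMSO cells. Gata4 and Sox17, of the endoderm list, also lay above both DMSO libraries and Sox7 below them. Eomes, the mesoderm marker with the highest level, had 8.26 and 7.98 CPM against 7.87 and 8.33. Lars stood at 467 and 422 CPM against 149 and 155 (−1.55 ± 0.08, edgeR adjusted p = 1.75e-10). Kars, the lysine enzyme of both compartments, stood at 553 and 548 against 316 and 295 (−0.85 ± 0.07, 0.00123), and Mars at 274 and 240 against 150 and 144 (−0.81 ± 0.08, 0.00567). Wars was higher, with 83.1 and 83.2 against 169 and 188 (1.10 ± 0.08, 1.81e-06). Kars lost its call without depleted RA replicate 2 (−0.78, 0.032), and Mars without DMSO RA replicate 1 (−0.71, 0.13) or either depleted RA library (−0.82 and −0.76, 0.019 and 0.063). DESeq2 called neither (adjusted p = 0.018 and 0.16), and with its size factors in edgeR Mars was not called (0.013). Scaled by library size alone, the changes of Kars and Mars were −0.64 and −0.60 and neither was called (edgeR adjusted p = 0.25 and 0.51), which left 1 member lower and 1 higher.

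With RA, more members were called lower than higher in both conditions. In DMSO cells 12 members were lower and 1 higher, beside 18.1% and 25.8% of all genes, and in depleted cells 15 were lower and 1 higher, beside 18.5% and 25.0%. The median over the 38 members was −0.46 in DMSO cells and −0.53 in depleted cells, beside 0.03 and 0.00 over all genes, and 34 of 38 log2 changes were below 0 in each. Scaled by library size only, all genes had medians of 0.35 and 0.39 and the members −0.14 and −0.13, with 24 of 38 below 0, and 3 members were called lower and 2 higher in each.

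In DMSO cells Rars, the arginine enzyme of the complex, had the greatest decrease, from 293 and 311 CPM to 95.7 and 103 (−1.61 ± 0.07, edgeR adjusted p = 3.53e-12). Cars2, the mitochondrial cysteine enzyme, went from 71.0 and 76.6 to 34.7 and 28.4 (−1.21 ± 0.09, 3.07e-07) and Tars, the threonine enzyme, from 432 and 483 to 209 and 193 (−1.18 ± 0.07, 3.29e-08). The proline enzyme Pars2 went from 19.6 and 20.4 to 9.45 and 10.7 (−1.0 ± 0.13, 0.00163). RA libraries lay under both controls for each of these. Qars (374 and 399 to 200 and 193 CPM), Yars2 (56.5 and 53.8 to 28.9 and 27.8), Aars2 (101 and 105 to 56.6 and 49.3), Sars2 (61.5 and 68.0 to 35.2 and 31.9), Wars (150 and 166 to 83.1 and 83.2), and Farsa and Farsb, the subunits of the cytosolic phenylalanine enzyme (259 and 277 to 146 and 136, 247 and 284 to 156 and 144), fell by 0.82 to 0.98 on the log2 scale (edgeR adjusted p of 2.92e-06 to 0.00147). Hars fell by 0.78. Tarsl2, the threonine paralog, rose from 8.87 and 9.86 to 24.3 and 25.9 (1.42 ± 0.12, 2.65e-07), so that Tars and Tarsl2 went opposite ways. Tarsl2 overlaps Tm2d3 by 923 bp on the same strand. Farsb and Hars lost their calls without DMSO replicate 2 (0.033 and 0.02) or DMSO RA replicate 2 (0.018 and 0.012), Pars2 lost its call without DMSO RA replicate 1 (0.023), DESeq2 called none of these 3 (0.011, 0.022 and 0.033), and Mars2 passed without DMSO replicate 2 (−0.93, 0.0029).

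In depleted cells, Pars2 went from 22.2 and 20.7 CPM to 5.88 and 7.96 with RA (−1.63 ± 0.14, edgeR adjusted p = 6.89e-08) and Rars from 280 and 283 to 97.5 and 91.6 (−1.58 ± 0.07, 5.64e-12). Sars2 went from 64.4 and 64.7 to 29.1 and 26.0 (−1.23 ± 0.09, 1.52e-07), Mars2 from 35.1 and 31.7 to 14.6 and 15.3 (−1.16 ± 0.11, 1.02e-05), and Kars from 660 and 673 to 316 and 295 (−1.12 ± 0.07, 1.08e-07). All of these are groups without overlap. Cars2 (74.5 and 75.8 to 34.9 and 34.2), Qars (310 and 309 to 148 and 144), Farsb (240 and 247 to 120 and 112), Hars (153 and 154 to 78.8 and 78.6), Vars (546 and 550 to 292 and 283), Tars (487 and 506 to 278 and 263) and Farsa (247 and 242 to 138 and 131) had log2 changes of −1.12 to −0.86 (edgeR adjusted p of 1.15e-07 to 0.000191). Aars2, Ears2 and Mars fell by 0.77 to 0.83, and Lars2 rose by 0.84 ± 0.07 (0.000451). Calls of Aars2, Ears2 and Mars rested on single libraries and were lost with DESeq2 (0.078, 0.30 and 0.21). Ears2 and Mars lost theirs without any 1 of the 4 libraries (edgeR adjusted p of 0.013 to 0.056), Aars2 without depleted replicate 2 or either depleted RA library (0.01 to 0.012), and Lars2 without depleted replicate 2 (0.014).

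The 2 RA comparisons use separate libraries. They shared 10 genes called lower (Aars2, Cars2, Farsa, Farsb, Hars, Pars2, Qars, Rars, Sars2 and Tars), which are 83.3% of those lower in DMSO cells and 66.7% of those lower in depleted cells. Over all genes, 1887 were called lower in both, 65.6% and 64.2% of each list. Between the same libraries, the stem cell markers summed to 7085 and 7227 CPM before RA and 1947 and 1365 after it in DMSO cells, and to 6395 and 6407 before and 1739 and 1447 after it in depleted cells. The primitive endoderm markers went from 3.62 and 4.18 to 25.5 and 24.1 CPM in DMSO cells and from 6.65 and 9.29 to 46.9 and 46.4 in depleted cells. In the interaction, 6 of 8 stem cell markers were called higher (Esrrb, Klf4, Nanog, Sox2, Tfcp2l1 and Zfp42) and 1 lower (Dppa5a), with a median of 0.79, and of 4 neural markers Nes, Pax6 and Sox1 were lower and Tubb3 higher. The part of such changes of cell state in the synthetase values was not tested.

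The difference between both RA effects was tested directly as an interaction (edgeR quasi-likelihood test, adjusted p under 0.05 and absolute log2 above 0.5). It gave 4 members lower and 1 higher, beside 18% and 13.7% of all genes, and 3 and 3 by library size alone. Wars had the greatest value, 0.96 ± 0.11 (edgeR adjusted p = 4.7e-07). With RA it was 1.90-fold lower in DMSO cells, and in depleted cells it was at 168 and 182 CPM before and 169 and 188 after RA, which overlap. Kars fell more in depleted cells, where its RA change was −1.12 beside −0.48 in DMSO cells (interaction −0.65 ± 0.10, 3.52e-05), and so did Pars2 (−0.63 ± 0.19, 0.0119). Tarsl2 went from 13.6 and 12.4 to 19.9 and 21.7 CPM in depleted cells, a smaller change than in DMSO cells (−0.74 ± 0.16, 0.0011). Vars2 stood at 51.6 and 57.9 before and 74.1 and 59.0 after RA in DMSO cells, and at 53.4 and 58.8 before and 47.8 and 48.1 after it in depleted cells (−0.52 ± 0.14, 0.00443). Yars2, which fell with RA in DMSO cells, was at 32.9 and 29.1 before and 22.7 and 22.4 after RA in depleted cells, and its interaction of 0.50 ± 0.13 (0.00411) lay just under the size threshold. It passed with DESeq2 (0.55, adjusted p = 0.0034) and, in edgeR, with the size factors of DESeq2 (0.56, 0.0019) or library size alone (0.57, 0.0016).

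Pars2 lost its interaction call without depleted replicate 1 (−0.58, edgeR adjusted p = 0.05) or depleted RA replicate 1 (−0.37, 0.16). Vars2 lost its call without DMSO replicate 1, DMSO RA replicate 1, depleted replicate 2 or either depleted RA library (−0.47 to −0.34), and under other scalings (−0.46 and −0.45). Yars2 passed without DMSO replicate 2, DMSO RA replicate 1, depleted replicate 1 or either depleted RA library (0.53 to 0.59). Without DMSO replicate 2 Iars2 passed (−0.57), and without depleted RA replicate 2 Lars2 did (0.53). Without the count filter Iars2 passed as well (−0.52, edgeR adjusted p = 2.52e-05), and with library size alone Lars2 did (0.51, 0.00016). DESeq2 did not call Vars2 (−0.46).

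**Figure D3:**
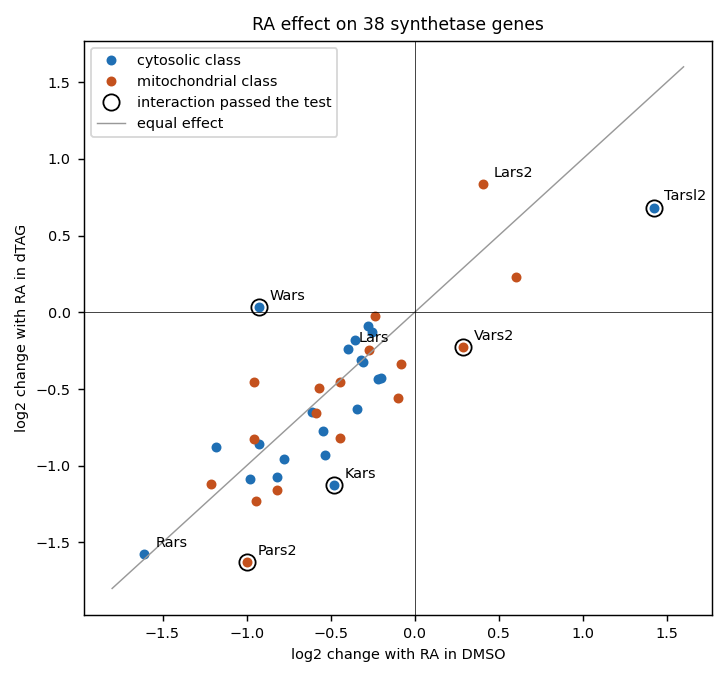
log2 change with RA in DMSO cells (x) against that in depleted cells (y) for the 38 members, coloured by class, with circles around the 5 whose interaction passed the test and a line of equal effect. Most members lie at negative values on both axes, Wars lies at −0.93 and 0.03, and Tarsl2 at 1.42 and 0.68.

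The 2 classes were also described by their median changes. In TT-seq, the cytosolic median was above 0 and the mitochondrial median below it at each time (0.11 and −0.11 with 2 h of depletion, 0.11 and −0.18 with 6 h, 0.19 and −0.08 with 24 h), beside 0.01 over all genes. The difference was −0.23, −0.29 and −0.27 in the fit. The 2 treated libraries gave −0.22 and −0.18 (2 h), −0.24 and −0.29 (6 h) and −0.37 and −0.33 (24 h). Both were set against the same control mean, so their spread leaves out that of the controls. These times share their DMSO libraries, and the signs were the same with the other scalings tried. Of the 17 pairs of a cytosolic and a mitochondrial gene for 1 amino acid (Fars2 paired with both Farsa and Farsb), the mitochondrial gene had the lower log2 change in 12, 9 and 11 in order of time. The tyrosine pair stood furthest apart at 2 h, with Yars at 0.33 and Yars2 at −1.28. For leucine the order was opposite, with Lars at −1.53 and Lars2 at −0.46. In poly(A) RNA, the class difference was −0.20, −0.06 and 0.02 (24, 48 and 72 h). The treated libraries gave −0.23 and −0.12, −0.04 and −0.08, and 0.02 and 0.03 in order of time. With RA the difference was 0.03 in DMSO cells (−0.02 and 0.03 by library) and 0.13 in depleted cells (0.04 and 0.19). No test was made of these medians.

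Within the cytosolic class, genes of the multisynthetase complex and the others had different medians in the time course, −0.05 against 0.31 (24 h), −0.41 against 0.28 (48 h) and −0.53 against 0.10 (72 h), beside 0.01 to 0.02 over all genes. Outside the complex, all 13 genes had a log2 change above 0 at 24 h, between 0.03 and 0.57, although none passed the test, beside 7256 of 13925 genes above 0. In the depletion before RA, also of 24 h, 10 of the 13 lay above 0 and 3 below it, from −0.20 to 0.47. Scaled by library size only, the all-gene median was 0.15, 0.21 and 0.23 in these comparisons. The complex held both Lars and Mars, called lower, and Eprs, called higher. Kars stood at 550 and 538 CPM in DMSO and 351 and 362 at 72 h, and Qars at 393 and 380 and 265 and 256. Neither passed the test against 1.5-fold although the groups did not overlap.

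**Figure D4:**
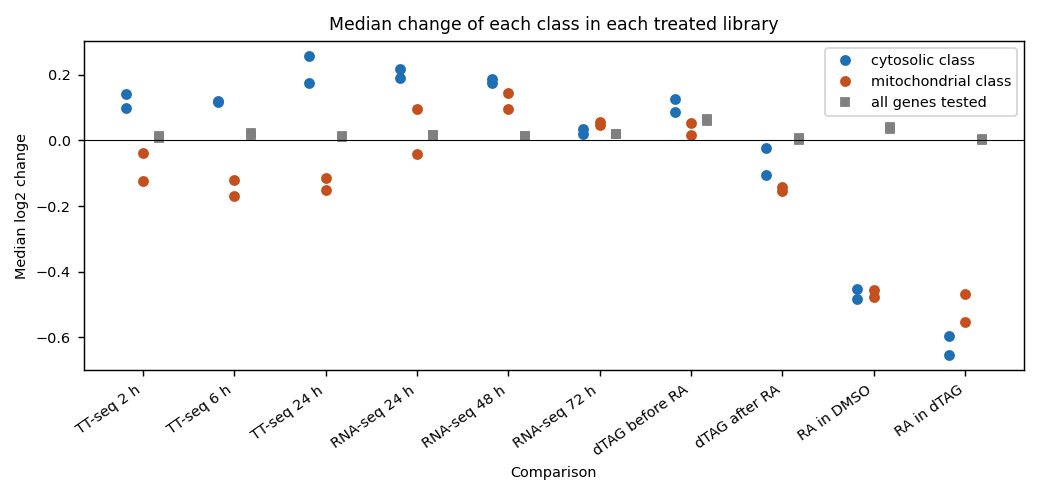
Median log2 change of the cytosolic class (blue), the mitochondrial class (red) and all tested genes (grey squares) in each of the 2 treated libraries against the mean of the controls, by comparison. In TT-seq the blue points lie above 0 and the red points below it, and with RA both classes lie between −0.45 and −0.65.

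Lars2 did not pass the test in any depletion comparison, and in the time course its change rested on 1 library. It had 4210 CPM in DMSO replicate 1 and 1417 in DMSO replicate 2, beside 1425 and 1411 (24 h), 1740 and 1607 (48 h) and 1577 and 1477 (72 h). The log2 changes of −0.99 ± 0.21, −0.75 ± 0.21 and −0.88 ± 0.21 (edgeR adjusted p = 0.104, 0.295 and 0.0842) became 0.00, 0.24 and 0.11 without DMSO replicate 1, and −1.57, −1.33 and −1.46 without DMSO replicate 2 (3e-23, 1.6e-19 and 3.2e-22). Without the count filter Lars2 was called at all 3 times (−1.0, −0.78 and −0.91, edgeR adjusted p = 1.84e-22, 2.33e-06 and 1.58e-15). An annotated rRNA gene, CT010467.1, chosen after its values were seen, had 40043 and 5154 CPM in the same DMSO libraries, and the mitochondrial 16S rRNA gene mt-Rnr2 had 445 and 297. In TT-seq Lars2 had 2097 and 1507 CPM in DMSO and 1186 to 1497 in depleted libraries, and CT010467.1 40098 and 32603 against 24021 to 28876. In the RA experiment CT010467.1 went from 4181 and 3437 CPM to 9071 and 12000 with RA in DMSO cells and from 3249 and 2515 to 5678 and 6195 in depleted cells. Lars2 had 1625 and 1611 CPM before and 2140 and 2146 after RA in DMSO cells, and 1085 and 1034 before and 1941 and 1846 after it in depleted cells. Before RA, both depleted libraries thus lay under both controls (−0.61 ± 0.07, edgeR adjusted p = 0.722 against 1.5-fold). Both genes were higher in each RA library than in each library of the same condition without RA. No annotated Lars2 transcript had a blastn match to the mitochondrial genome, and the part of rRNA reads in the Lars2 values was not tested.

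**Figure D5:**
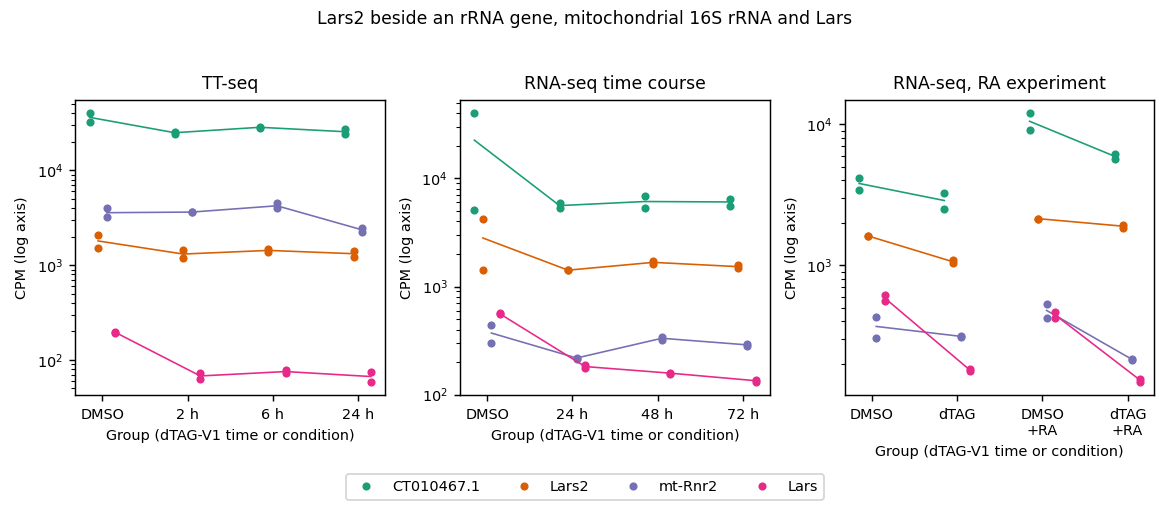
CPM (log axis) of Lars2, the rRNA gene CT010467.1, mt-Rnr2 and Lars in each library by group, with lines through group means. In the RNA-seq time course DMSO replicate 1 stands apart for Lars2 (4210 against 1417 CPM) and for CT010467.1 (40043 against 5154), while Lars has 552 and 566.

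Other genes of tRNA charging gave 15 measured genes. At 2 h in TT-seq 3 were lower and 0 higher, beside 2.43% and 0.168% of all genes. Gatb, a subunit of the amidotransferase that makes mitochondrial Gln-tRNA, fell from 37.9 and 37.7 CPM to 15.8 and 15.5 (−1.27 ± 0.15, edgeR adjusted p = 0.00349), and Sepsecs, which makes the selenocysteine tRNA, fell from 16.1 and 26.1 to 2.63 and 4.64 (−2.53 ± 0.42, 0.0152). Both carried ZFP143 peaks, of 57.3- and 56.6-fold. Ptrhd1, a peptidyl-tRNA hydrolase family gene without a peak here, fell from 8.58 and 7.39 to 3.11 and 3.25 (−1.32 ± 0.25, 0.0257). The same 3 genes were lower at 6 h, in poly(A) RNA after 24 and 48 h, and before RA, and at 72 h Dtd1, a D-aminoacyl-tRNA deacylase, was lower with them, beside 2.83% of all genes lower at 6 h, 3.41%, 7.71% and 12% in poly(A) RNA over time and 3.66% before RA. At 24 h in TT-seq Gatb and Ptrhd1 were lower, beside 4.09%. After RA, depleted cells had Dtd1, Gatb, Ptrhd1 and Pstk, a kinase of the selenocysteine route, lower, beside 7.36%, and Sepsecs did not pass the test (−0.73, edgeR adjusted p = 0.115). In the interaction Dtd1 and Pstk were lower and Sepsecs higher, beside 18% and 13.7%. Mtfmt, which formylates mitochondrial Met-tRNA and had a 12.5-fold peak, was called in no comparison. With RA, the complex scaffold genes Aimp1 and Aimp2 and the CCA-adding enzyme Trnt1 were lower in DMSO cells (−0.88, −1.01 and −0.81, edgeR adjusted p = 0.000421, 1.98e-05 and 0.00544) and in depleted cells (−0.85, −1.32 and −0.84, 0.000835, 1.57e-08 and 0.0024). In depleted cells Gatc, another amidotransferase subunit, and the peptidyl-tRNA hydrolase Ptrh2 were lower as well (−0.82 and −0.94, edgeR adjusted p = 0.00982 and 0.00115). Called higher with RA were Dtd1 in DMSO cells (1.09, 2.79e-05) and Sepsecs in depleted cells (1.61, 1.5e-08). Over all genes 18.1% were lower and 25.8% higher with RA in DMSO cells, and 18.5% and 25.0% in depleted cells.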

How the data were processed

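Groups came from the sample labels: 8 TT-seq libraries and 16 RNA-seq libraries, in groups of 2. The authors deposited 3 tables of unnormalized counts, 1 column per library, made from STAR alignments to mm10 with GENCODE vM25 genes. For TT-seq the authors removed duplicates, split reads by strand and counted whole genes with HTSeq, keeping reads that fall in 2 genes for both. For RNA-seq they used the counting mode of STAR. The deposited ZFP143 peaks, called with MACS2, come with a ratio (fold over input) and a q-value as −log10, while those of CTCF come without values. Each factor has 1 list without replicates. Contact files from 4C hold no synthetase viewpoint and were not used here.

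Each table was fitted once in edgeR 4.0.16 (limma 3.58.1, R 4.3.3) with its 4 groups, scaled by TMM, on genes above 10 counts in 4 or more of 8 libraries: 17870, 13925 and 15915 genes. The biological coefficient of variation was 17.2%, 3.65% and 5.92%. The TT-seq comparisons and the interaction of RA with depletion used the quasi-likelihood test, and RNA-seq contrasts used glmTreat against 1.5-fold, with Benjamini-Hochberg adjustment over all tested genes of a table. The SE is the log2 change over the root of the F statistic. Scripts were tested on simulated counts. Depth and the spread between the 2 libraries of a group both set the precision, and a deeply covered gene such as Lars2 can have a wide error. The study speaks of biological replicates, and p-values measure the spread between these libraries. Every called member is named, beyond 12 a comparison with the range of the rest, and others where bound by ZFP143, extreme or paired with a named gene, except for 1 member that is not reported here by itself and enters the counts and medians only. Members, lists and the rule were chosen with earlier results of these data known.

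Gene symbols, positions and types come from GENCODE vM21 of the same build, in which 55141 of 55401 identifiers were found. Promoter sequences are from RefSeq (GRCm38.p6). Alternatives were DESeq2 1.42.0, its size factors, library size alone, no count filter, other thresholds, a replicate block, leaving out each library, narrower or higher peaks, and Tarsl2 in the mitochondrial class.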

Additional observations from a re-analysis of the deposited data

Results flagged for a closer look

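Members whose effect differed between times or conditions by a direct test of the difference (edgeR) are listed here as values. Between 72 h and 24 h of depletion, both measured in libraries apart from DMSO, the log2 difference was −0.83 for Iars2, −0.96 for Vars2 and 0.75 for Wars. Between the RA effect in depleted cells and that in DMSO cells it was −0.65 for Kars, −0.63 for Pars2, −0.74 for Tarsl2, −0.52 for Vars2 and 0.96 for Wars. Among these, Vars2 and Wars were called in both. The values of Vars2 and Pars2 in the RA experiment depended on single libraries, as given above, and the call of Wars between 72 h and 24 h was lost without 24 h replicate 1 or 72 h replicate 2, with DESeq2 and without the count filter. Groups of 2 libraries are too small for a search for outlying samples.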

How the results depend on the processing

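With 2 libraries a group, many calls rested on 1 library, and genes with few reads had wide errors. The causes of the changes below were not tested beyond what each setting itself changes. Under all settings tried Lars kept its call in each depletion comparison except TT-seq 6 h at the stricter RNA-seq thresholds (edgeR adjusted p = 0.012). The direction was reversed in 3 cases, all Lars2 in RNA-seq without DMSO replicate 1 (0.00086, 0.24 and 0.11 at 24, 48 and 72 h, and −1.57, −1.33 and −1.46 without DMSO replicate 2). Of the other results for single members, 1023 stayed on the same side of the threshold (most of them not called), 94 came to pass it and 122 no longer passed it, all without a change of direction. The 7 bound members were also 7 with a 500 bp limit and 5 with peaks above the median enrichment alone.

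Exchanging the thresholds of TT-seq and RNA-seq gave 1, 0 and 1 called members in TT-seq at 2, 6 and 24 h, 5, 13 and 13 in RNA-seq at 24, 48 and 72 h, 8 for 72 h against 24 h, 6 and 7 for depletion before and after RA, 20 for RA in DMSO and 1 for the interaction. With library size alone, 2 members were called for depletion after RA, 5 for RA in DMSO and 5 for RA in depleted cells. On that scale the cytosolic and mitochondrial medians after RA were 0.14 and 0.03 (−0.07 and −0.18 with TMM), and the mitochondrial median for 72 h against 24 h was 0.03 (−0.05 with TMM). DESeq2 called 1 for TT-seq 24 h against 2 h, 5 for RNA-seq 72 h and 2 for depletion after RA, and its size factors gave 2 for depletion before RA. Without the count filter there were 1 for TT-seq 24 h against 2 h and 2 for RNA-seq 24 h.

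Replicate numbers recur in each group without a stated link. The correlation of same-numbered deviations over 6 pairs of groups was 0.19 to 0.63 in TT-seq, −0.04 to 0.06 in RNA-seq and −0.10 to 0.13 in the RA experiment. With a replicate block, 10 members were called at 24 h in TT-seq, with Aars (0.53, edgeR adjusted p = 0.036), Gars (0.51, 0.022), Sars (0.70, 0.037) and Vars2 (−0.54, 0.037) added, and 2 for 24 h against 2 h, Qars (−0.50, 0.045) and Wars (0.59, 0.014). Vars2 then also passed at 6 h (−0.59, 0.038). In the other comparisons the count stayed within 1.5 times, though Eprs at 72 h was lost (0.011) and the interaction of Yars2 passed (0.50, 0.0043).

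With Tarsl2 in the mitochondrial class, the class difference was −0.26 and −0.22 in TT-seq at 2 and 24 h, 0.01 in RNA-seq at 48 h, 0.11 for 72 h against 24 h, −0.028 and −0.16 for depletion before and after RA, and −0.14 for the interaction. Leaving out 1 library at a time, the called members ranged from 1 to 3, 1 to 2 and 1 to 3 in TT-seq at 2, 6 and 24 h, 1 to 3 in RNA-seq at 24 h, and 2 to 4 for depletion after RA. The class difference then ranged from −0.26 to −0.20, −0.31 to −0.23 and −0.38 to −0.25 in TT-seq, −0.072 to 0.16 for 24 h against 2 h, −0.10 to −0.011 and −0.029 to 0.084 in RNA-seq at 48 and 72 h, 0.12 to 0.18 for 72 h against 24 h, −0.070 to −0.064 and −0.16 to −0.057 for depletion before and after RA, −0.022 to 0.038 for RA in DMSO, and −0.10 to 0.039 for the interaction.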

Other observations

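Of 11 genes known to rise when amino acids or loaded tRNAs run short (Asns, Atf3, Atf4, Chac1, Ddit3, Psat1, Sesn2, Slc3a2, Slc7a5, Slc7a11 and Trib3), 0 passed the test in TT-seq at 2 or 6 h and 1, Slc7a11, at 24 h (2.28 ± 0.49, edgeR adjusted p = 0.0328). In poly(A) RNA, 4 were called higher and 0 lower at 24 h (Atf3, Ddit3, Slc7a11 and Trib3), 6 and 0 at 48 h, and 5 and 1 at 72 h, when Psat1, a serine synthesis enzyme, was lower (−0.83, 1.1e-06). Over all genes 2.32%, 10.5% and 13.7% were higher at these times and 3.41%, 7.71% and 12% lower. Depletion before RA gave 5 higher and 0 lower, and after RA again 5 and 0, beside 2.74% and 9.1% of all genes higher. Ddit3, a stress-induced transcription factor, had 11.6 and 12 CPM in DMSO and 59.7 and 58.0, 97.8 and 104, and 96.4 and 88.2 at 24, 48 and 72 h (2.32, 3.09 and 2.96). Of the 11 genes, ZFP143 peaks stood at Slc3a2 (83.8-fold), Ddit3 (25.0-fold), Trib3 (24.4-fold) and Sesn2 (15.0-fold), beside 14.5% of protein-coding genes tested. Asns, the asparagine synthetase, did not pass the test in any depletion comparison, with changes of −0.17 to 0.43. The list median was 0.65, 0.70 and 0.59 at 24, 48 and 72 h, beside 0.02, 0.01 and 0.02 over all genes. Among synthetases with TGATGNAA in the promoter, the change at 24 h was 0.46 for Aars, 0.43 for Gars, 0.18 for Iars, 0.24 for Tars and 0.38 for Yars, and none passed the test. At that time 17 of the 21 cytosolic genes lay above 0. Of the 2 genes whose peak windows hold TGATGNAA, Cars was at 0.31 and Mars at −0.70.

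With RA, 2 of the 11 were higher and 1 lower in DMSO cells, and 2 higher and 2 lower in depleted cells. Over all genes 25.8% were higher and 18.1% lower in DMSO cells, and 25.0% and 18.5% in depleted cells. Atf3 and Ddit3 were the higher genes in both. Asns was among the lower genes in depleted cells (−0.82, edgeR adjusted p = 0.00183).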
